A study of Mus musculus with 8 samples.

Results

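The genes described here are the expressed Zfp genes of the mouse, which carry the symbol Zfp followed by a number and encode proteins named for zinc fingers. Of 333 symbols of that form among 23366 in the count table, 256 held at least 1000 read counts summed over all libraries and were taken as the expressed Zfp genes. Another 77 lay below that limit, 11 of them with 0 counts. The members were thus selected on the total count of a gene, and their levels are given as a description. The totals ran from 1001 to 112343 counts with a median of 4336. Just inside the limit lay Zfp873 with 1039 counts, Zfp3 with 1013 and Zfp174 with 1001, and just outside it Zfp30 with 983, Zfp953 with 976 and Zfp940 with 928. The comparison set was the 10912 other genes with at least 1000 counts.

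The cells were fibroblasts taken from mouse embryos (MEFs), of strain C57BL/6 and at low passage, and their RNA was sequenced. Wild-type (WT) cells and cells labelled kdm3a KO, a knockout of a histone demethylase gene, were either fed (0 h) or kept for 12 h in DMEM that lacked glucose and held dialyzed serum, with 2 libraries in each of the 4 groups. Fed cells were grown in DMEM with serum not described as dialyzed, so glucose loss, the serum and the elapsed time cannot be told apart, and starvation below means all of these. The labels do not say whether the 2 libraries of a group stem from different embryos or dishes. The spread behind every p-value may therefore be technical.

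Most Zfp proteins hold runs of C2H2 fingers, short loops in which cysteines and histidines clamp a zinc ion and through which the protein reads DNA. The largest group also holds a KRAB box, which binds the corepressor Trim28. Trim28 in turn brings Setdb1, a methyltransferase of histone H3 lysine 9, so KRAB zinc finger proteins are known for silencing transposable elements and imprinted regions. Their genes arose by repeated local duplication and lie in clusters. Kdm3a removes methyl groups from the same lysine. Other Zfp genes share only the name: Zfp36 encodes a CCCH protein that binds AU-rich messenger RNAs, and Zfp598 a ubiquitin ligase of collided ribosomes.

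The promoters of members at both ends of the starvation response show what precedes these genes. The RefSeq promoter table (build GRCm38.p6) held a window of 300 bases, 250 before and 50 after the start, for 206 of the 256 members. The 4 windows below belong to Zfp598 (chr17:24669437-24669736, plus strand) and Zfp330 (chr8:82774096-82774395, minus strand), which rose under both labels, and to Zfp810 (chr9:22307589-22307888, minus strand) and Zfp324 (chr7:12965588-12965887, plus strand), which are KRAB genes that all but vanished in starved WT cells. Capitals mark the letters GGGCGG and CCGGAAG or their reverse complements.
Zfp598: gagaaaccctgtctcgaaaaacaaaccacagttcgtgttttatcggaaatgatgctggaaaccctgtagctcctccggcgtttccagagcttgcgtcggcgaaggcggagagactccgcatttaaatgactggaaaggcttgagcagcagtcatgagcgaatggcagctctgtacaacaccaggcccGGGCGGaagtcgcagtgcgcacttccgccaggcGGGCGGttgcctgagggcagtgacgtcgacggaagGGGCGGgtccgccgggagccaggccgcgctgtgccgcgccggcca
Zfp330: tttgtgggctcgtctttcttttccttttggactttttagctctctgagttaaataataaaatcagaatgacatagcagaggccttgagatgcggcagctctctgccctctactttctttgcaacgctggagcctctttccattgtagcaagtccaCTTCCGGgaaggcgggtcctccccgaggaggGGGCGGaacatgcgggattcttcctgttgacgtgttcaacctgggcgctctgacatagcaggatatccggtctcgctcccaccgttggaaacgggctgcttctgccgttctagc
Zfp810: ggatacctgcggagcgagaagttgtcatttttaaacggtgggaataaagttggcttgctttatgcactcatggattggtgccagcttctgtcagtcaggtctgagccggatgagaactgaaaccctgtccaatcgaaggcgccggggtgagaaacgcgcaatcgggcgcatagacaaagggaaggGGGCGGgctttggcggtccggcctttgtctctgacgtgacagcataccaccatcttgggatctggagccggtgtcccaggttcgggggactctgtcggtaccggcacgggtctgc
Zfp324: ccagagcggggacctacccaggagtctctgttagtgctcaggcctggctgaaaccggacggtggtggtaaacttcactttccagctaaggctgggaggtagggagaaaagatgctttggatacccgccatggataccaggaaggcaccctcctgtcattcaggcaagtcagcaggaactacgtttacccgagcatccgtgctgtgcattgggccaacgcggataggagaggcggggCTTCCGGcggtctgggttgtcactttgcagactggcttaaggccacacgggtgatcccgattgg

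A search of both strands for 9 motifs took each as 1 fixed run of letters, spelled out here where short and otherwise named. The letters GGGCGG stood in 48.1% of the 206 member promoters, in 68.3% of 7970 promoters of other expressed genes and in 35.9% of all 27025 promoters. The letters CCGGAAG stood in 20.4%, 19.6% and 9.1% of the same sets. The longest, 11 letters of the long-known site of the factor encoded by Zfp143, stood in 7 member promoters (3.4%), in 0.8% of other expressed genes and in 0.3% of all promoters. TGATGCAA, the letters of a stress response element bound by Atf4 and Chop, stood in 0% of the member windows and in 0.5% of those of other expressed genes. TGACGTCA stood in 2.4% of member windows against 3.5% of other expressed genes, the Yy1 motif in 2.9% against 2.3%, the Nrf1 motif in 2.9% against 2.2%, CACGTG in 7.8% against 10.9% and a palindromic CGCG element in 0.5% against 1.2%. A match is a run of letters and no test of binding.

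The 7 sites of the Zfp143 motif follow with 15 bases on each side, to show its letters and orientation. Capitals mark the motif, which is forward in Zfp692 and Zfp933 and its reverse complement in the other 5, and all began 15 to 71 bases before the start. They are Zfp1 (chr8:111643403-111643443), Zfp128 (chr7:12881148-12881188), Zfp180 (chr7:24081860-24081900), Zfp58 (chr13:67500527-67500567), Zfp692 (chr11:58307006-58307046), Zfp93 (chr7:24270332-24270372) and Zfp933 (chr4:147848425-147848465), each read on the strand of its gene.
Zfp1: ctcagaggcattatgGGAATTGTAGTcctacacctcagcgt
Zfp128: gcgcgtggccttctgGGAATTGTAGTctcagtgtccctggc
Zfp180: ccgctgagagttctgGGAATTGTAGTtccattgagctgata
Zfp58: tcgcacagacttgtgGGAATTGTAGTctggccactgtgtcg
Zfp692: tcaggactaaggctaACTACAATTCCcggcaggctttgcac
Zfp93: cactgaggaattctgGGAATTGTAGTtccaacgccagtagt
Zfp933: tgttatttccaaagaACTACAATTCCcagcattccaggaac

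These 7 genes did not move one way. In WT starvation Zfp1, Zfp180 and Zfp692 rose (log2 fold change 1.01, 0.27 and 1.34) while Zfp58, Zfp93, Zfp128 and Zfp933 fell by 1.04, 1.40, 2.34 and 1.11 (edgeR, adjusted p at most 0.00185). With scaling to library totals in place of TMM, which is explained below, the median of all genes in this comparison moved by -0.46, more than the rise of Zfp180.

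The libraries held 38407520 to 53602289 counts, which limits counting error to a few percent for a gene at the median member total. Levels are in CPM, counts scaled to a common library size. The scaling was TMM, which sets the bulk of genes to no change between libraries, while scaling to library totals, the alternative, leaves shifts of the bulk in place. Summed and scaled to the raw library totals, Zfp genes took 6448 and 6370 CPM in fed WT, 5380 and 5489 in starved WT, 6346 and 6334 in fed KO-labelled and 5942 and 5907 in starved KO-labelled libraries. Their share of all RNA was therefore lower in both starved groups, with no overlap between fed and starved libraries of a label. In bulk samples fewer cells of a type and less RNA per cell cannot be told apart. Paired libraries of a group differed by more than sampling noise over the members (chi-square per degree of freedom 2.06 to 3.09), and the median coefficient of variation between them was 3.33 to 6.19%. Kdm3a itself read 56.1 and 56.4 CPM in fed WT and 55.2 and 55.4 in fed KO-labelled libraries, so its RNA level when fed does not separate the labels. After starvation it read 176 and 185 against 65.4 and 66.7 CPM. Xist, the RNA of the inactive X, read 0.939 to 1.54 CPM in WT and 869 to 1370 CPM in KO-labelled libraries, so the sex of the cells and the label cannot be told apart. Summed fibroblast markers (12 genes) read 17700 to 18100 CPM in fed WT, 13700 to 13800 in starved WT, 7710 to 7800 in fed KO-labelled and 6150 to 6170 in starved KO-labelled libraries. Col1a1, Col1a2 and Vim were the most abundant of them in fed WT, and the markers did not move one way. When fed, 4 were called higher and 8 lower in KO-labelled cells, such as Dcn (log2 fold change 4.41) and Col1a2 (-4.53). In WT starvation 3 rose and 7 fell, such as Vim (1.37) and Col1a1 (-4.24). Markers of dividing cells (8 genes) fell in starvation under both labels, all 8 of 8 in each, from 1640 to between 478 and 480 CPM in WT and from 1920 to 1930 down to between 408 and 412 in KO-labelled cells. Markers of blood cells and macrophages (7 genes, Ptprc, Emr1 and Hbb-b1 at 0 counts) summed to 2.80 to 5.88 CPM outside the starved KO-labelled libraries and to 47.3 to 47.6 there, of which Cd68 alone made up 40.9 and 40.7 CPM while Lyz2 stayed below 1 CPM. Endothelial markers (4 genes) summed to 52.9 to 54.9 CPM in starved WT and 2.29 to 5.50 elsewhere, of which Kdr alone made up 54.8 and 52.8 CPM, with Pecam1, Cdh5 and Tek below 1 CPM in every library. The part of these differences in the results below was not tested.

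Levels were mostly low and spread widely. The median member had a mean of 11.7 CPM, and the 10 most abundant were Zfp106, Zfp207, Zfp91, Zfp706, Zfp598, Zfp740, Zfp330, Zfp384, Zfp622 and Zfp828. Per kilobase of transcript, the scale on which genes can be compared, the median was 3.41 CPM per kb over 253 members with a length. Zfp207, whose product takes part in kinetochore attachment, stood at 107 CPM per kb, Zfp330, which encodes a nucleolar protein, at 64.2 and Zfp598 at 46.3. The 108 CPM per kb of Zfp703 rests on a short matched transcript and is uncertain. That of Zfp207 rests on a matched transcript of 1562 bases for a protein of 495 residues and may be too high.

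Protein patterns were read from translated GENCODE coding sequences for all members but Zfp862. A KRAB box pattern was present in 124 members, which held a median of 12 fingers and stood at a median of 7.61 CPM. Another 104 held at least 3 C2H2 fingers without KRAB or SCAN pattern, with a median of 8.5 fingers and 22.1 CPM. The 22 members with few or no C2H2 fingers stood at a median of 49.6 CPM, 4 held a SCAN pattern, and Zfp36 alone held the CCCH pattern. The patterns miss divergent boxes, so a member outside the KRAB class may still encode a KRAB protein. Of the KRAB class 78 (62.9%) lay in runs of neighbouring members with at most 1 other gene between them, against 41 of 104 (39.4%) of the C2H2 class. There were 41 such runs with 122 members, and the longest held 7.

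The first comparison asked how starvation changed Zfp genes in WT cells. More Zfp genes fell than rose: 157 of 256 were called lower and 66 higher (edgeR quasi-likelihood test over all genes, Benjamini-Hochberg adjusted p under 0.05). Over all 14418 genes tested the test called 81.6%, with 44.8% lower and 36.7% higher, so the share called lower among members (61.3%) stood above that background and the share called higher (25.8%) below it. The median log2 fold change was -0.57, unchanged when the 1 gene at 0 counts is set to its bound, against 0.02 over the other genes of at least 1000 counts. Scaled to library totals, members stood at 195 lower and 42 higher with a median of -1.03, and the other genes at a median of -0.44. Of all genes tested 59.8% were then lower and 23.6% higher, against 76.2% and 16.4% of members. The share of higher among the calls of members moved from 29.6% to 17.7% with that scaling.

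Low genes fell more in general, so members are set beside other genes of like totals. Between 1000 and 3000 counts, 70 of 89 members were lower (median -1.40), against 909 of 1462 other genes (median -0.94). Between 3000 and 10000 counts, 68 of 105 members were lower (median -0.65), against 1611 of 2909 other genes (median -0.39). From 10000 counts upward, 36 of 62 members were higher (median 0.45), against 3744 of 6541 other genes (median 0.27). The excess of lower calls thus stood among the members of low and middle totals.

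The KRAB class carried most of the falls. In it 90 of 124 were lower and 15 higher, with a median of -0.83, while the C2H2 class had 52 lower and 40 higher of 104 with a median of -0.25. KRAB genes of 3000 to 10000 counts had a median of -0.65 and the members of the same totals outside the class -0.66, so at those totals the class had no lower median than the rest. Between 1000 and 3000 counts the medians were -1.47 for 67 KRAB genes and -0.81 for 22 others. The difference between classes was not tested. Among other zinc finger families, Zbtb genes, which pair fingers with a BTB domain, had 16 higher and 13 lower of 31, Zscan and Zkscan genes 5 and 8 of 15, and Zc3h genes, which hold CCCH fingers, 10 and 6 of 17. With library totals these became 13 and 14, 4 and 9, and 7 and 7, while 23.6% of all genes tested were higher and 59.8% lower.

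**Figure D1:**
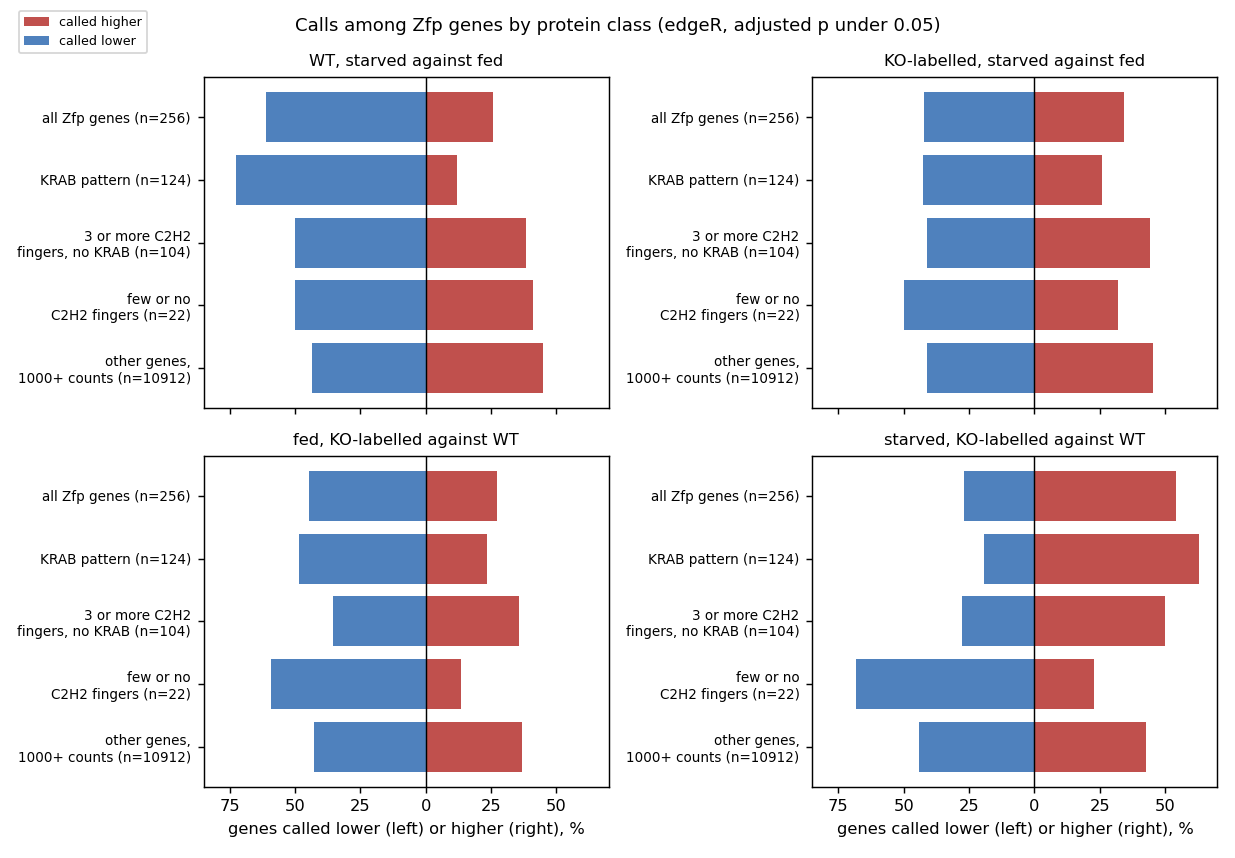
Percent of genes called lower (bars to the left) and higher (bars to the right) in each of 4 comparisons, for all 256 Zfp genes, 3 protein classes and the 10912 other genes of at least 1000 counts. In WT starvation 72.6% of the KRAB class were lower and 12.1% higher.

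The deepest falls left almost no reads. Zfp810, a KRAB gene, read 4.33 and 5.38 CPM in fed WT and had 0 counts in both starved WT libraries, against 5.61 and 6.08 CPM in fed and 2.71 and 2.49 CPM in starved KO-labelled libraries. With 3 counts per library in place of 0 (0.0915 CPM), its level in starved WT was at least 53.1-fold lower than in fed WT (adjusted p = 2.2e-12). Zfp41, a short C2H2 gene, read 15.3 and 14.7 CPM in fed and 0.368 and 0.545 CPM in starved WT, a fall by 5.03 ± 0.19 on the log2 scale (SE, adjusted p = 3.69e-16). Zfp763, another KRAB gene, read 6.97 and 6.96 CPM in fed and 0.0614 and 0.394 CPM in starved WT, the latter from 2 and 13 counts. In each of the 3 the fed and starved WT libraries lay far apart.

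The next 3 falls passed the same test in WT. Zfp862, now annotated as the pseudogene Zfp862-ps, read 27.1 and 25.8 CPM in fed and 1.44 and 1.33 CPM in starved WT (log2 fold change -4.25 ± 0.14, SE). Zfp467, which encodes a C2H2 factor known for a role in fat and bone precursors, read 12.8 and 11.8 CPM in fed and 0.645 and 0.697 CPM in starved WT (-4.19 ± 0.18). Zfp820, a KRAB gene on chromosome 17, read 5.42 and 6.56 CPM in fed and 0.583 and 0.364 CPM in starved WT (-3.65 ± 0.25).

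Of the 6 largest rises in WT, 4 belonged to members with few or no C2H2 fingers. Zfp598, the ligase that marks collided ribosomes, read 59.6 and 57.1 CPM in fed WT, 320.3 and 332.7 in starved WT, 52.3 and 50.4 in fed KO-labelled and 186 and 182 in starved KO-labelled libraries. Its rise was 2.48 ± 0.04 log2 in WT (SE, adjusted p = 1.43e-22) and 1.84 ± 0.04 in KO-labelled cells. Zfp622, a factor of large ribosomal subunit maturation, read 46.8 and 47.3 CPM in fed WT, 214 and 218 in starved WT, 41.9 and 42.2 in fed KO-labelled and 99.9 and 92.8 in starved KO-labelled libraries. All starved libraries lay above all fed ones for both genes.

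Zfp330 read 55.6 and 57.2 CPM in fed WT, 225 and 229 in starved WT, 28.0 and 28.8 in fed KO-labelled and 117 and 119 in starved KO-labelled libraries. Its rise was 2.01 ± 0.04 in WT and 2.06 ± 0.04 in KO-labelled cells, and the difference of the rises did not pass the test (0.05 ± 0.06, adjusted p = 0.46). Zfp259, now Zpr1, which encodes a zinc finger protein that binds elongation factor 1A, rose by 2.10 ± 0.06 and 1.55 ± 0.06. Zfp593, whose product acts in ribosome assembly, rose by 1.68 ± 0.08 and 2.04 ± 0.07. Zfp367, a gene with few C2H2 fingers, rose by 1.84 ± 0.05 and 0.93 ± 0.04. The KRAB gene Zfp566 had the steepest rise in WT, from 0.811 and 1.10 CPM to 7.61 and 7.15 CPM (2.95 ± 0.21), and rose by 1.31 ± 0.20 in KO-labelled cells. These genes kept their direction when scaled to library totals, at 1.22 to 2.49 in WT and 0.67 to 1.80 in KO-labelled cells.

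**Figure D2:**
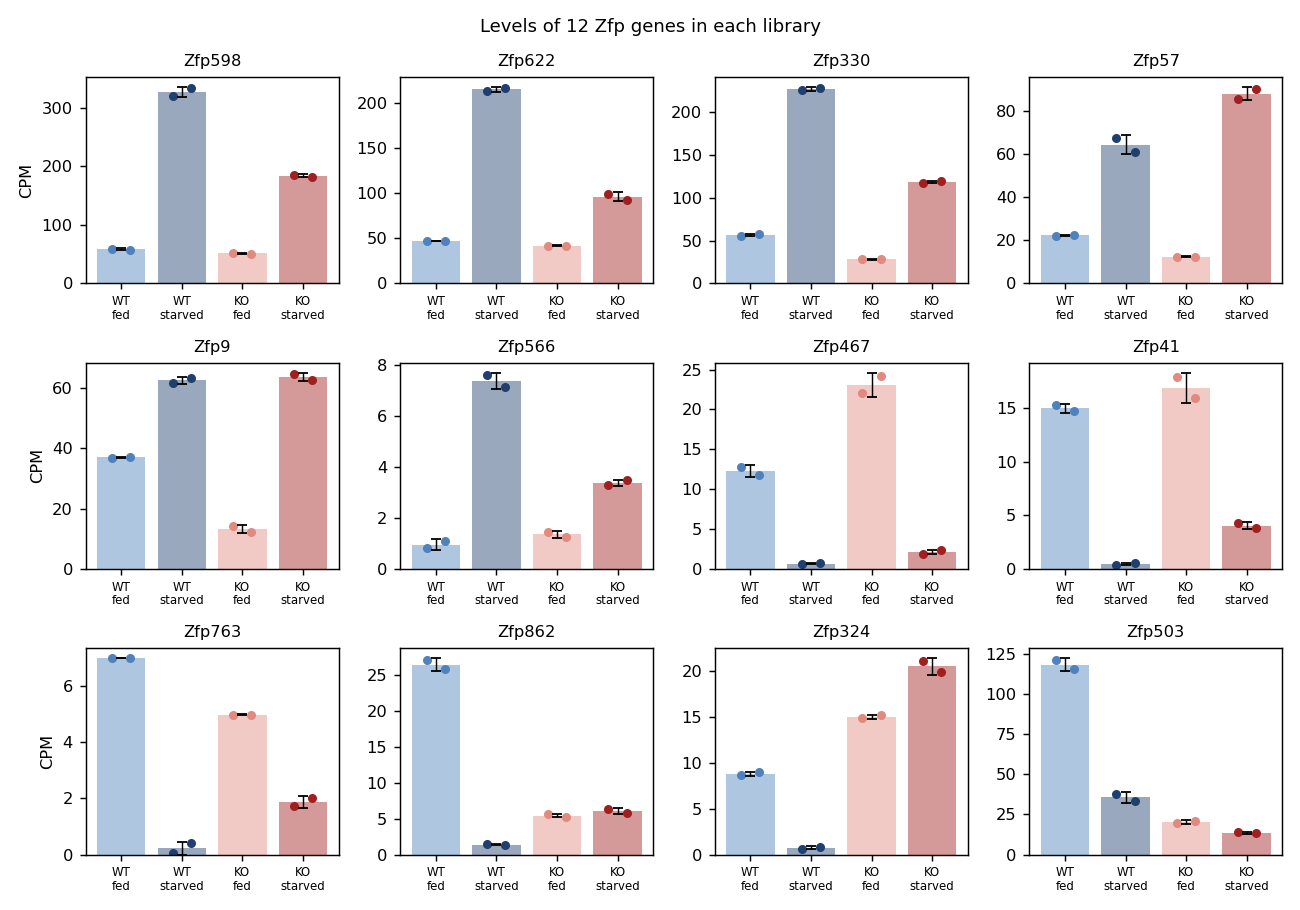
Level in CPM (linear axis from 0, own scale per gene) of 12 Zfp genes in the 4 groups. Points are single libraries, bars are means of 2 libraries and error bars are SD, and the starved WT libraries of Zfp41 lie at 0.368 and 0.545 CPM against 15.3 and 14.7 when fed.

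The second comparison asked the same of KO-labelled cells. There 108 Zfp genes fell and 88 rose, with a median of -0.07, against 0.05 over the other genes. The test called 79.7% of all 14418 genes, 40.3% lower and 39.4% higher, so the members called lower (42.2%) lay near the background and those called higher (34.4%) below it. Scaled to library totals, 140 were lower and 50 higher with a median of -0.33 against -0.21 over the other genes, and the share of higher among the calls of members moved from 44.9% to 26.3%. Of all genes tested 50.2% were then lower and 29.6% higher, against 54.7% and 19.5% of members. The KRAB class had 53 lower and 32 higher with a median of -0.13. The C2H2 class had 43 lower and 46 higher with a median of 0.06, which turned to -0.19 with library totals.

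Zfp57 stood at the head of the rises. It encodes the KRAB protein that protects imprinted methylation in the embryo, and read 12.5 and 12.3 CPM in fed and 85.6 and 90 in starved KO-labelled libraries, against 22.1 and 22.4 in fed and 67.4 and 61.0 in starved WT. The rise was 2.83 ± 0.06 in KO-labelled cells and 1.53 ± 0.06 in WT. Zfp9, another KRAB gene, read 14.1 and 12.3 CPM in fed and 64.6 and 62.6 in starved KO-labelled libraries, against 36.8 and 37.0 in fed and 61.6 and 63.3 in starved WT. Its level differed between the labels when fed and overlapped after starvation.

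Among the falls in KO-labelled cells, Zfp467 dropped by 3.43 ± 0.12, Zfp820 by 2.45 ± 0.17 and the KRAB gene Zfp90 by 2.41 ± 0.13. Zfp90 read 10.8 and 10.9 CPM in fed and 1.66 and 2.38 in starved KO-labelled libraries, against 26.2 and 25.4 in fed and 7.62 and 7.36 in starved WT. The KRAB gene Zfp101 fell by 2.15 ± 0.13, Zfp608 by 2.09 ± 0.18 and Zfp41 by 2.07 ± 0.12. All 6 also fell in WT.

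The responses of the 2 labels share no library. Across the 256 members they correlated at r = 0.661 (Pearson) and rho = 0.672 (Spearman), against 0.741 and 0.735 across the other genes, with genes that are not independent replicates. Lower under both labels were 93 members (36.3%, other genes 31.7%) and higher under both 51 (19.9%, other genes 34.8%). A further 41 were lower in WT and not called in KO-labelled cells (16%, other genes 5.97%), and 23 were lower in WT and higher in KO-labelled cells (8.98%, other genes 6.01%). In 187 members (73.0%) the change was larger in WT, against 60.7% of the other genes.

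**Figure D3:**
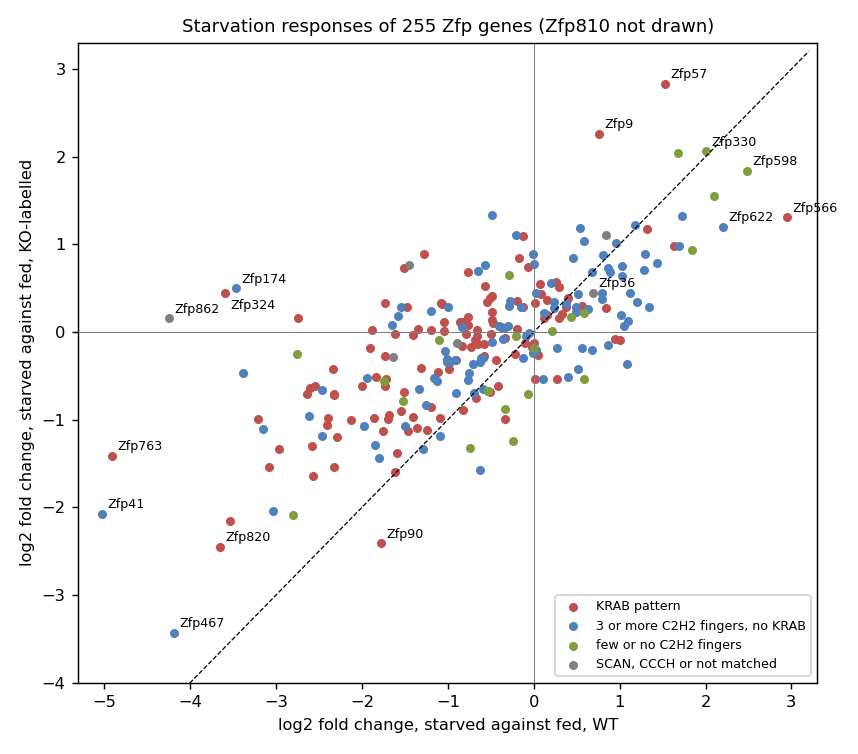
Log2 fold change of starved against fed in WT (horizontal) and in KO-labelled cells (vertical) for the Zfp genes other than Zfp810, coloured by protein class, with the line of equal change dashed. Zfp324, Zfp174 and Zfp862 lie far to the left near the horizontal zero line, and Zfp57 and Zfp9 above the dashed line.

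The difference of the responses, the interaction, was tested directly. Its log2 value is the response of KO-labelled cells less that of WT. It was positive in 140 members and negative in 51 at an adjusted p under 0.05, with a median of 0.44 against 0.00 over the other genes. The test called 64.5% of all genes, 34.1% positive and 30.4% negative, so members called positive (54.7%) lay above and those called negative (19.9%) below the background. That excess stood at low and middle totals. Between 1000 and 3000 counts 62 of 89 members were positive and 4 negative (median 1.0, other genes 0.51). Between 3000 and 10000 counts 60 of 105 were positive and 19 negative (median 0.42, other genes 0.22). From 10000 counts upward 18 of 62 were positive and 28 negative (median -0.14, other genes -0.14). The KRAB class had 78 positive and 10 negative with a median of 0.70, the C2H2 class 50 and 28 with a median of 0.28, and the 22 genes with few or no fingers 7 and 12 with a median of -0.19, which turned to 0.01 with library totals. Between 1000 and 3000 counts the median was lower in 67 KRAB genes (0.93) than in 22 other members (1.31). Between 3000 and 10000 counts the medians were 0.56 for 49 KRAB genes and 0.36 for 56 others. The difference between classes was not tested.

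Zfp324, a KRAB gene on chromosome 7, gave one of the widest gaps. It read 8.69 and 8.97 CPM in fed WT, 0.614 and 0.848 in starved WT, 14.9 and 15.2 in fed KO-labelled and 21.2 and 19.9 in starved KO-labelled libraries. It fell by 3.59 ± 0.17 in WT and rose by 0.45 ± 0.09 in KO-labelled cells (interaction 4.04 ± 0.20, adjusted p = 2.42e-13). Zfp174 read 4.38 and 4.74 CPM in fed and 0.307 and 0.515 CPM in starved WT, against 2.35 and 2.33 CPM in fed and 3.35 and 3.29 CPM in starved KO-labelled libraries (interaction 3.96 ± 0.34). Zfp862 fell in WT and stood at 5.61 and 5.29 CPM in fed and 6.39 and 5.8 CPM in starved KO-labelled libraries (interaction 4.41 ± 0.18). In these 3 genes the starved WT libraries were the lowest of all.

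Interactions in the negative direction were smaller. Zfp236, a C2H2 gene on chromosome 18, rose from 53.8 and 52.7 to 107 and 119 CPM in WT and fell from 41.2 and 41.7 to 32.8 and 31.5 CPM in KO-labelled cells (interaction -1.45 ± 0.08, adjusted p = 5.68e-13). Zfp609, whose product works with cohesin loading factors, rose by 0.58 ± 0.05 in WT and fell by 0.53 ± 0.04 in KO-labelled cells. The KRAB gene Zfp1 rose by 1.01 ± 0.09 in WT and read 6.98 and 7.32 CPM in fed and 6.85 and 6.61 CPM in starved KO-labelled libraries.

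Between the labels when fed, 114 Zfp genes were lower and 70 higher in KO-labelled cells, with a median of -0.12 against -0.05 over the other genes. The test called 74.4% of all genes, 39.8% lower and 34.5% higher, so the members called lower (44.5%) lay a little above and those called higher (27.3%) below the background. Scaled to library totals, 92 were lower and 83 higher with a median of -0.01, and the median of the other genes turned to 0.07. Of all genes tested 32.9% were then lower and 40.3% higher, against 35.9% and 32.4% of members. This comparison shares the fed WT libraries with WT starvation and the fed KO-labelled libraries with KO-labelled starvation.

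The direction differed by chromosome. On chromosome 7, which holds 61 of the members, 45 were higher and 2 lower in fed KO-labelled cells (median 0.53), and 612 of the 730 other genes there were higher too (median 0.61). On chromosome 8 all 18 members were lower (median -0.73), as were 458 of 596 other genes (median -0.50). The 3 members on chromosome 1 were higher beside 510 of 620 other genes (median 0.65), and on chromosome 17 the 36 members had 24 lower and 2 higher (median -0.33) beside a median of -0.22 for other genes. Of the 3 X-linked members, Zfp449 and Zfp182 were lower (-0.87 and -0.58), with a median of -0.34 for the other X-linked genes. Zfp275 stood at -0.10 ± 0.04 (edgeR, adjusted p = 0.048), a call lost with DESeq2 (adjusted p = 0.308), with the replicate block (0.0582), under each other filter and without most single libraries, and its value turned to 0.02 with library totals.

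Without the members on chromosomes 1, 7 and 8, 22 of 174 were higher and 94 lower. Over all other genes, with these chromosomes included, 37.0% were higher and 42.9% lower. On chromosomes 1, 7 and 8 the other genes were 82.3%, 83.8% and 13.3% higher and 7.74%, 6.3% and 76.8% lower. The share of other genes off these chromosomes was not computed, and leaving them out moves that background too. The number of gene copies was not measured. Between fed and starved WT cells the other genes had medians of 0.16 on chromosome 1, 0.01 on chromosome 7, 0.06 on chromosome 8, 0.03 on chromosome 17 and -0.25 on the X. With the median of other genes on the same chromosome subtracted, the member medians were -0.57 in WT starvation, -0.13 in KO-labelled starvation, -0.09 between the labels when fed, 0.33 when starved and 0.43 for the interaction. Those for the KRAB class were -0.88, -0.19, -0.11, 0.61 and 0.75.

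**Figure D4:**
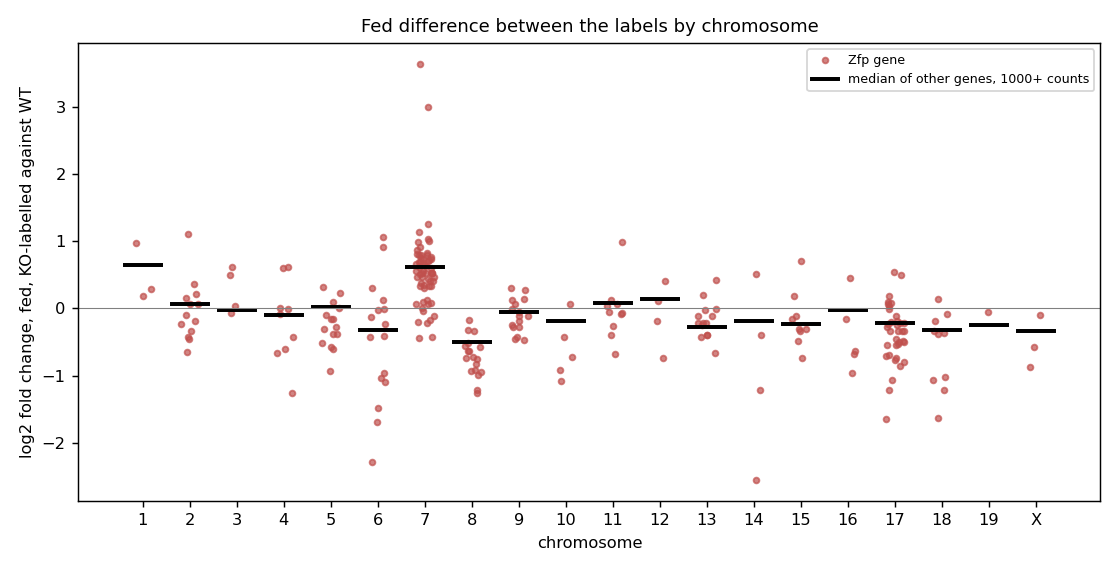
Log2 fold change of fed KO-labelled against fed WT cells for each Zfp gene (points) by chromosome, with the median of other genes of at least 1000 counts as a bar. The bars of chromosomes 1 and 7 stand at 0.65 and 0.61 and that of chromosome 8 at -0.50, with the Zfp genes spread around them.

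The largest fed differences in the higher direction were on chromosome 7. Zfp764, a KRAB gene, read 0.996 and 0.622 CPM in fed WT against 9.45 and 10.9 CPM in fed KO-labelled libraries (3.64 ± 0.20, SE, adjusted p = 7.4e-13). Zfp941 read 0.695 and 0.526 CPM against 5.23 and 4.53 CPM (2.99 ± 0.24), and its level did not pass the test for starvation under either label. Zfp715 (1.25 ± 0.10) and Zfp382 (1.14 ± 0.17) followed on the same chromosome. Both exceed the chromosome median of 0.61.

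Off that chromosome, Zfp217, a C2H2 gene known for amplification in tumours, was higher by 1.10 ± 0.08 and Zfp422 by 1.06 ± 0.09. In the lower direction Zfp503, a developmental corepressor gene, read 121 and 115 CPM in fed WT and 19.4 and 20.9 CPM in fed KO-labelled libraries (-2.55 ± 0.06). Zfp862 (-2.28 ± 0.10), Zfp239 (-1.69 ± 0.16), Zfp40 (-1.64 ± 0.17), Zfp532 (-1.63 ± 0.08) and Zfp9 (-1.48 ± 0.06) were the next lowest.

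After starvation the balance between the labels was the reverse: 139 members were higher and 69 lower in KO-labelled cells, with a median of 0.34 against -0.02 over the other genes. The test called 79.6% of all genes, 41.9% higher and 37.7% lower, so the members called higher (54.3%) lay above and those called lower (27.0%) below the background. Between 1000 and 3000 counts 57 of 89 members were higher and 9 lower (median 0.91, other genes 0.57). Between 3000 and 10000 counts 64 of 105 were higher and 26 lower (median 0.37, other genes 0.23). From 10000 counts upward the balance was the other way, with 18 of 62 higher and 34 lower (median -0.24, other genes -0.17). Scaled to library totals, 173 were higher and 49 lower, the share of higher among the calls moved from 66.8% to 77.9%, and the medians were 0.66 for members and 0.29 for the other genes. Of all genes tested 54.2% were then higher and 26.2% lower, against 67.6% and 19.1% of members. Without the members on chromosomes 1, 7 and 8, 87 of 174 were higher and 53 lower. Over all other genes, with these chromosomes included, 42.5% were higher and 44.3% lower. On chromosomes 1, 7 and 8 the other genes were 70.6%, 74.5% and 23.8% higher and 18.1%, 13.7% and 66.6% lower. Their share off these chromosomes was not computed. This comparison shares the starved WT libraries with WT starvation and the starved KO-labelled libraries with KO-labelled starvation.

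Of the KRAB class 78 were higher and 24 lower in starved KO-labelled cells (median 0.57), and of the genes with few or no fingers 5 were higher and 15 lower (median -0.50). Between 1000 and 3000 counts the medians were 0.92 for KRAB genes and 0.85 for other members. They were 0.50 and 0.32 between 3000 and 10000 counts. Chromosome 7 members had 46 higher and 5 lower with a median of 0.98, and the other genes there a median of 0.60. Zfp810 was at least 28.4-fold higher in starved KO-labelled than in starved WT libraries, with 3 counts per library in place of 0. Zfp324 was higher by 4.80 ± 0.15, Zfp764 by 4.77 ± 0.31 (from 4 and 8 counts in starved WT), Zfp41 by 3.13 ± 0.23, Zfp763 by 3.02 ± 0.39 and Zfp174 by 3.00 ± 0.28. As said above, the selection of Zfp764 leaned on the KO-labelled libraries.

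Lower in starved KO-labelled cells were Zfp1 (-2.04 ± 0.09), Zfp521 (-1.96 ± 0.11), a gene of mesenchymal and blood precursors, Zfp90 (-1.87 ± 0.15), Zfp236 (-1.81 ± 0.05), Zfp395 (-1.79 ± 0.06) and Zfp692 (-1.74 ± 0.08). Zfp1 read 27.1 and 28.4 CPM in starved WT and 6.85 and 6.61 CPM in starved KO-labelled libraries. Zfp91, which encodes a ubiquitin ligase of the NF-kB pathway, read 127 and 143 CPM in fed WT, 284 and 292 in starved WT, 132 and 129 in fed KO-labelled and 146 and 140 in starved KO-labelled libraries. Its rise in WT was 1.10 ± 0.04, and in KO-labelled cells it was 0.13 ± 0.04, which turned to -0.12 with library totals and did not pass the test with DESeq2 (adjusted p = 0.0685) or without fed KO-labelled replicate 2 (adjusted p = 0.054).

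Neighbouring members are given by run as a description, beside the shares of their background. On chromosome 9 the run Zfp266, Zfp26, Zfp426, Zfp560 and Zfp846 held 5 KRAB genes, and all 5 fell in WT starvation (median -0.65), where 44.8% of all genes tested were lower. On chromosome 17 the run Zfp948, Zfp52, Zfp51, Zfp53, Zfp54 and Zfp677 had 4 of 6 lower and 1 higher in WT starvation. Its values ran from -2.74 to 0.30, where 41.2% of the other genes of that chromosome were lower and 44.8% higher. When fed, 5 of 6 were lower in KO-labelled cells, beside 66.7% of all members and 58.1% of the other genes of that chromosome. The chromosome 8 run Zfp869, Zfp866, Zfp868 and Zfp963 had 4 of 4 lower in that fed comparison, as had all 18 members and 76.8% of the other genes of that chromosome. The chromosome 7 run from Zfp568 to Zfp420 had 5 of 7 higher and 0 lower, where 83.8% of the other genes of that chromosome were higher. The longest run on chromosome 6 was mixed in WT starvation, with 3 of 7 higher and 3 lower. Of the other genes of that chromosome 42.7% were higher and 48.3% lower. Neighbours of this kind can be near-identical copies, and how reads with several matches were counted is not given in the sources used here, so values within clusters are uncertain.

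Of a list of 36 Zfp genes with a known role 28 were members, and those outside the KRAB class included the following. Zfp36, which speeds the decay of inflammatory messenger RNAs, read 13.8 and 13.4 CPM in fed WT, 22.4 and 21.6 in starved WT, 27.4 and 26.8 in fed KO-labelled and 35.7 and 38.3 in starved KO-labelled libraries. It rose by 0.69 ± 0.08 and 0.45 ± 0.06, and the 4 groups did not overlap. Its relative Zfp36l1 fell by 2.34 ± 0.06 in WT and by 0.85 ± 0.05 in KO-labelled cells, and Zfp36l2 rose by 0.63 ± 0.03 in WT and fell by 0.45 ± 0.04 in KO-labelled cells. Over the 16 tested genes of that RNA decay list 9 rose and 5 fell in WT, and 3 rose and 11 fell in KO-labelled cells, while library totals gave 6 and 10 in WT and 3 and 13 in KO-labelled cells. Of all genes tested 36.7% were higher and 44.8% lower in WT, and 39.4% and 40.3% in KO-labelled cells. Library totals moved these shares to 23.6% and 59.8% in WT, and to 29.6% and 50.2% in KO-labelled cells.

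Zfp143, the gene of the factor whose site was printed above, read 12.3 and 13 CPM in fed WT, 24.4 and 21.5 in starved WT, 18.5 and 18 in fed KO-labelled and 17.1 and 16 in starved KO-labelled libraries. It rose by 0.86 ± 0.09 in WT, and its value of -0.15 ± 0.08 in KO-labelled cells did not pass the test (adjusted p = 0.11). It passed with library totals (-0.40, adjusted p = 0.000153), with a minimum of 5 CPM in 2 libraries (-0.24, adjusted p = 0.012) and when either starved WT library was left out (-0.20 both times, adjusted p = 0.0194 and 0.019). Zfp281, a C2H2 factor known from embryonic stem cells, fell by 1.09 ± 0.07 in WT and by 1.19 ± 0.06 in KO-labelled cells. Zfp106, which encodes an RNA-binding protein, rose by 0.96 ± 0.04 and 1.01 ± 0.04. Zfp148, a C2H2 factor of GC-rich promoters, rose by 0.89 ± 0.05 and 0.69 ± 0.05, and Zfp326, part of a complex that links splicing to transcription, fell by 0.24 ± 0.06 and 1.24 ± 0.06. Without starved WT replicate 2 the fall of Zfp326 in WT was 0.10 and did not pass the test.

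The partners of KRAB proteins were measured as a list of 36 genes. In WT starvation 15 rose and 17 fell (median -0.03), and in KO-labelled starvation 4 rose and 25 fell (median -0.40). Over all genes tested, 36.7% were higher and 44.8% lower in WT, near the shares of the list, and 39.4% were higher and 40.3% lower in KO-labelled cells. Scaled to library totals, 3 rose and 28 fell in WT (median -0.49), and 2 rose and 31 fell in KO-labelled cells (median -0.66). With that scaling 23.6% of all genes tested were higher and 59.8% lower in WT, and 29.6% and 50.2% in KO-labelled cells. The summed level of the partner list was 6010 to 6050 CPM in fed WT, 5210 to 5290 in starved WT, 5340 in both fed KO-labelled and 3600 to 3630 in starved KO-labelled libraries. Trim28 read 294 and 292 CPM in fed WT, 309 and 326 in starved WT, 395 and 395 in fed KO-labelled and 272 and 272 in starved KO-labelled libraries. Setdb1 read 98.5 and 96.2 CPM in fed WT, 83.4 and 82.1 in starved WT, 71.0 and 68.1 in fed KO-labelled and 70.4 and 68.0 in starved KO-labelled libraries. The maintenance methyltransferase gene Dnmt1 fell by 0.73 ± 0.04 in WT and 1.36 ± 0.04 in KO-labelled cells.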

How the data were processed

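The deposited values are raw read counts, 1 row per RefSeq transcript, as the authors left them. TopHat2 2.0.9, bedtools and build mm9 are named without roles, per the submitters' processing notes, and strand handling is not given in the sources used here. Groups came from the sample titles. A further 4 columns matched no sample and were not used. For each symbol only the top row by total was used, since 61 members had more than 1 row and 76.4% of 89 such rows held at least 90% of the top row. The test was edgeR 4.0.16 under R 4.3.3 (TMM, filterByExpr, 1 coefficient per group over 8 libraries, quasi-likelihood F test, Benjamini-Hochberg over 14418 genes, threshold 0.05), after tests on simulated data. All 256 members passed the low-count filter. Standard errors were derived from the fold change and its F statistic, and the common biological coefficient of variation was 0.0341. CPM used library sizes after TMM, and a count of 0 was bounded by 3 counts per library, which covers counting error only. Protein classes, planned from RefSeq proteins, were read from translated GENCODE M21 coding sequences. Promoters came from RefSeq GRCm38.p6, with chromosome 18 left out. Chromosomes came from RefSeq GRCm38.p6 by transcript accession, or by symbol where that was not found, for 10861 of 10912 other genes. Named members were the 10 of highest mean CPM, the 6 with the largest change in each direction of each comparison (adjusted p under 0.05), and those with a listed known role or on the X. The members and lists were chosen with earlier results of these data known. DESeq2 1.42.0, other filters and scalings, a replicate block and each library left out were alternatives.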

Additional observations from a re-analysis of the deposited data

Results flagged for a closer look

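The starvation response differed between WT and KO-labelled cells for 191 Zfp genes by a direct test of the difference (edgeR interaction, adjusted p under 0.05), and 51 of the 61 named members were among them. Values below are the log2 response of KO-labelled cells less that of WT. They are given as values with no explanation, and the labels also differ in sex markers and by chromosome.

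The difference was positive, with a value below 0 in WT and none below 0 in KO-labelled cells, for Zfp862 (4.41), Zfp422 (0.90), Zfp40 (0.84), Zfp324 (4.04), Zfp174 (3.96), Zfp110 (0.89) and Zfp462 (0.37). It was positive with values below 0 under both labels, lower in WT, for Zfp41 (2.96), Zfp763 (3.51), Zfp467 (0.76), Zfp820 (1.21), Zfp101 (1.39), Zfp608 (0.71), Zfp217 (0.99), Zfp503 (1.18), Zfp239 (2.06), Zfp809 (0.48), Zfp449 (0.76) and Zfp182 (1.93). For Zfp810, with 3 counts per library in place of 0 in starved WT, it was at least 4.56. It was positive with values above 0 under both labels for Zfp57 (1.30), Zfp9 (1.5) and Zfp593 (0.37).

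The difference was negative, with a value above 0 in WT and below 0 in KO-labelled cells, for Zfp382 (-1.03), Zfp1 (-1.10), Zfp236 (-1.45), Zfp609 (-1.11), Zfp143 (-1.01), Zfp335 (-0.92) and Zfp516 (-0.24). It was negative with values above 0 under both labels, higher in WT, for Zfp91 (-0.96), Zfp598 (-0.64), Zfp622 (-1), Zfp384 (-0.40), Zfp828 (-0.41), Zfp566 (-1.64), Zfp259 (-0.55), Zfp367 (-0.91), Zfp692 (-1.06), Zfp36 (-0.24), Zfp148 (-0.20), Zfp292 (-0.98), Zfp592 (-0.83) and Zfp703 (-0.21). It was negative with no value above 0 under either label for Zfp207 (-0.63), Zfp706 (-0.14), Zfp740 (-0.18), Zfp90 (-0.63), Zfp521 (-0.95), Zfp395 (-0.58) and Zfp326 (-1.01).

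With library totals 45 of the 51 kept direction and call. The value of Zfp706 turned to 0.06 and that of Zfp740 to 0.02, and those of Zfp36 (-0.04), Zfp148 (0.00), Zfp516 (-0.04) and Zfp703 (-0.01) no longer passed the test. DESeq2 ended the calls of Zfp593, Zfp608, Zfp462 and Zfp809. Leaving out 1 library ended 2 to 6 of the calls, for 13 genes over all 8 libraries (adjusted p 0.0507 to 0.487). They were Zfp36, Zfp40, Zfp90, Zfp148, Zfp462, Zfp467, Zfp516, Zfp593, Zfp608, Zfp703, Zfp706, Zfp809 and Zfp820.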

How the results depend on the processing

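Of 1816 values for 122 gene results under alternatives, 1761 kept direction and call. Scaled to library totals, 42 members rose in WT (16.4%, all genes tested 23.6%) and 50 in KO-labelled starvation (19.5%, all genes tested 29.6%). With 5000 counts as the member limit, 113 members remained. Of these 113, WT starvation gave 46 lower, against 44.8% of all genes tested. All genes tested include those of lower totals, which fell more in WT. Of other genes 55.4% were lower between 3000 and 10000 counts and 34.3% from 10000 upward. No share was taken for other genes of at least 5000 counts. Whether the excess of lower calls in WT remained at that limit therefore cannot be told. The shares of all genes in the next sentences have the same limit. KO-labelled starvation gave 56 higher and 41 lower (all genes 39.4% and 40.3%), and the fed comparison 37 and 54 (34.5% and 39.8%). The starved comparison gave 51 higher (all genes 41.9%) and the interaction 44 positive (34.1%). Without members on chromosomes 1, 7 and 8, an alternative chosen after seeing the data, 22 of 174 were higher when fed and 87 when starved. Over all other genes, with these chromosomes included, 37.0% were higher when fed and 42.5% when starved.

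Leaving out each library in turn gave 64 to 69 higher and 145 to 156 lower in WT starvation, 77 to 88 and 99 to 118 in KO-labelled starvation, 61 to 81 and 100 to 112 when fed, 123 to 140 and 64 to 77 when starved, and 118 to 139 and 47 to 63 for the interaction. A lone library is there assumed to vary like the other groups.

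The replicate numbers did not pair the libraries (correlation of same-numbered deviations -0.019 to 0.014). With the replicate block the counts higher and lower were 66 and 155, 87 and 108, 70 and 112, 138 and 68, and 139 and 52, in the same order.

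Library totals turned the sign of Zfp91 in KO-labelled starvation (-0.12) and of Zfp740 (-0.45) and Zfp516 (-0.42) in WT. They also turned Zfp292 (-0.19) and Zfp592 (-0.06) in KO-labelled cells, Zfp687 (-0.34 in WT, -0.04 in KO-labelled), Zfp703 (-0.24 and -0.25) and Zfp275 (0.02 fed, 0.26 starved). Of these, Zfp91 in KO-labelled cells and Zfp703 in WT passed the test under both scalings, and no other value did. The scaling itself moves the median of all genes. Depth limits members with few reads in starved WT, such as Zfp763 and Zfp764.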
